A study of Mus musculus with 35 samples.

Results

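PMN-MDSC and M-MDSC sorted from the spleens of mice treated with poly(I:C)c were compared over 3 PMN-MDSC and 4 M-MDSC libraries, 7 of the 35 libraries of the series. The members were chosen by the condition their columns name, and the 8153 genes that averaged 25 or more counts over these 7 libraries were tested. All mice were female C57BL/6 animals aged several weeks that carried an orthotopic pancreatic tumor of T110299 cells. This line came from a KPC mouse tumor, and in KPC mice Cre under the Ptf1a promoter acts on engineered alleles in the pancreas. All tumors came from this 1 line, and the sorted cells were the host's own. Treated mice received 50 μg of poly(I:C) complexed with polyethylenimine at an N/P ratio of 6, by vein on day 18 and day 20 after implantation, and the treatment notes give glucose as the control for the mice labelled untreated. Spleen cells were enriched for CD11b and sorted as CD45+ CD11b+ Ly6Clow Ly6G+ PMN-MDSC or CD45+ CD11b+ Ly6Chigh Ly6G- M-MDSC, and the RNA of each sort was amplified by PCR into a stranded library. Untreated spleen (4 libraries of each cell type) and treated tumor (4 PMN-MDSC and 3 M-MDSC libraries) served as background, the last without 1 library of 10 counts.

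MDSC are myeloid cells that expand in tumor-bearing hosts and restrain T cells. PMN-MDSC share their morphology and most markers with neutrophils, which fill up with primary, secondary and tertiary granules in that order while they mature and which lose most protein synthesis and mitochondria at the end. M-MDSC resemble inflammatory monocytes, which keep an active secretory and antigen-presenting programme, follow CCL2 through CCR2 and can become macrophages or dendritic cells. Poly(I:C) mimics viral double-stranded RNA, which MDA5 in the cytosol and TLR3 in endosomes recognize, and type I interferon made in response acts through IFNAR on both cell types.

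The 7 libraries held between 1561674 and 3435054 counts. CPM are counts scaled by library total and TMM factor, listed in the order PMN-MDSC library 1 to 3 and M-MDSC library 1 to 4, and 3 counts, the smallest level taken as detectable, stood for 0.765 to 2.35 CPM. The library numbers only name libraries. Each mouse can have given both cell types, but the column names hold running numbers that no label ties to a mouse, so the fits were not paired and p-values measure the spread between these libraries. In bulk RNA, fewer cells of a type and less RNA per cell cannot be told apart. Intervals and floors cover counting error only, since the libraries carry no molecular identifiers.

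Of the 8153 genes tested, 1728 (21.2%) differed between PMN-MDSC and M-MDSC at an adjusted p under 0.001 with a change of at least 2-fold, which is what called means here, 833 (10.2%) higher in PMN-MDSC and 895 (11%) higher in M-MDSC. None of the 1728 had overlapping groups, and 63.2% of all tested genes had no overlap either. The median log2 fold change of the tested genes was −0.11. Which direction dominated depended on the scaling: PMN-MDSC held 48.2% of the called genes with TMM factors, 52.1% with RLE, 32.5% with upper-quartile scaling (median −0.44) and 22.3% with library totals alone (median −0.69). The filter let 2325 genes through on the level in 1 group alone, 2125 of them M-MDSC and 200 PMN-MDSC, and 750 of the 1728 called genes were among these. By the filter the mean counts of such genes had to differ between the groups, though not by enough for a call. Shares of called list members, given below in the order higher in PMN-MDSC and higher in M-MDSC, stand beside the 10.2% and 11% of all tested genes. Without M-MDSC library 1 the number of called genes was 516, without library 3 it was 599, without library 2 it was 791, and without PMN-MDSC library 2 or 3 it was 746 or 748. Leaving out PMN-MDSC library 1 gave 1718 and leaving out M-MDSC library 4 gave 1199, and 0 genes were called in the opposite direction in any of these fits.

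**Figure D1:**
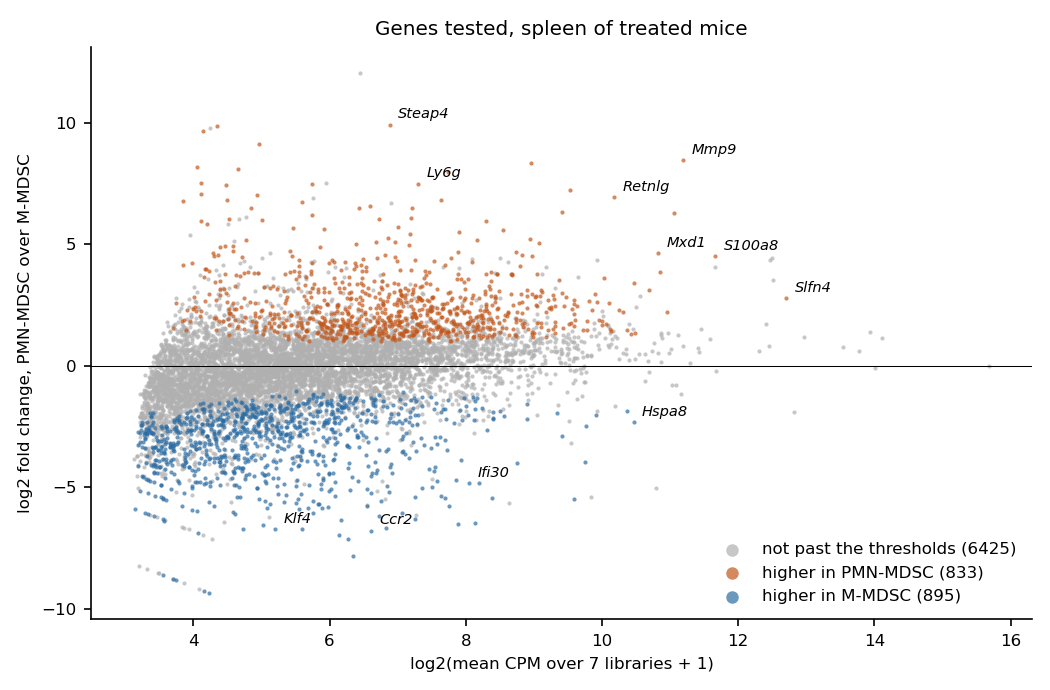
Log2 fold change of PMN-MDSC over M-MDSC against log2 of the mean CPM + 1 over the 7 libraries, 1 point per tested gene. Orange points are the 833 genes called higher in PMN-MDSC and blue points the 895 called higher in M-MDSC, and a few genes carry their symbol.

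The transcript of the sorting antigen Ly6G separated the groups, and those of Ly6C did not. Ly6g, the PMN-MDSC gate (Ensembl identifier ENSMUSG00000022582.4; GRCm38 chromosome 15, 75155240 to 75159126, + strand), stood at 357, 314 and 414 CPM in PMN-MDSC and 4.05, 0, 0.894 and 3.37 CPM in M-MDSC. These groups did not overlap (log2 fold change 7.5 ± 0.7, adjusted p = 0.00012; ± is the SE of the log2 fold change of PMN-MDSC over M-MDSC here and below). Itgam, which encodes CD11b, stood at 888, 686 and 729 CPM in PMN-MDSC and 282, 236, 305 and 258 CPM in M-MDSC and was higher in PMN-MDSC. For Itgam the log2 fold change was 1.5 ± 0.18 (adjusted p = 0.000307). Ly6c2, the main Ly6C gene of monocytes, stood at 714, 1273 and 1228 CPM in PMN-MDSC and 672, 834, 815 and 859.6 CPM in M-MDSC, and its difference did not pass the test (log2 fold change 0.43 ± 0.25, adjusted p = 0.161), although the gates take low Ly6C protein in one group and high Ly6C protein in the other. Ly6c1 had 3.13, 9.29 and 10.2 CPM in PMN-MDSC and 9.45, 8.67, 9.54 and 7.5 CPM in M-MDSC and was too low to be tested. Ly6c1 and Ly6c2 are near-identical copies whose reads can be split between them. Ptprc (CD45) did not pass the test either. For Ptprc the log2 fold change was 0.68 ± 0.39 (adjusted p = 0.162).

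Defining neutrophil and monocyte markers separated the groups by their sums, with transcripts of neutrophil markers in every M-MDSC library. The summed level of 10 neutrophil markers was 88200, 41000 and 40500 CPM in PMN-MDSC and 5460, 1250, 929 and 4780 CPM in M-MDSC, so M-MDSC libraries 1 and 4 stood above libraries 2 and 3. The summed level of 10 monocyte markers was 257, 367 and 262 CPM in PMN-MDSC and 3620, 3720, 3170 and 2260 CPM in M-MDSC. No marker of either list was at 0 in all 7 libraries. M-MDSC library 4 stood apart by lymphoid RNA: 8 B cell markers summed to 11700 CPM there and to 118 to 360 CPM in the other M-MDSC libraries, and 4 plasma cell markers summed to 934 CPM against 14.2 to 45.6 CPM. Markers of T cells (at most 45 CPM), erythroid cells (at most 13.3 CPM), basophils and mast cells (at most 1.5 CPM), platelets (at most 16 CPM) and pancreatic tumor epithelium (at most 11.3 CPM) were low, with the T cell maximum in M-MDSC library 4. Pancreatic acinar markers stood at 0.888 CPM or less, with 9 of 10 at 0 in all 7 libraries. NK cell markers reached 150 CPM and dendritic cell markers 51.7 CPM, both in M-MDSC library 4. Eosinophil markers summed to 121 and 127 CPM in M-MDSC libraries 1 and 4 and to at most 35.2 CPM in the others. The sums of red pulp macrophage markers, 500 to 904 CPM in PMN-MDSC and 506 to 846 CPM in M-MDSC, lay in the same range. The 8 members went both ways: 6 had a negative log2 fold change and 2 a positive one (−4.7 to 3.56), with 1 called in each direction. The part of these cells in the results below was not tested, and counts without M-MDSC libraries 1 and 4 are given where they bear on a group. That fit called 348 genes, 2.27% of all tested genes higher in PMN-MDSC and 2.17% higher in M-MDSC, and its list counts stand beside these shares.

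**Figure D2:**
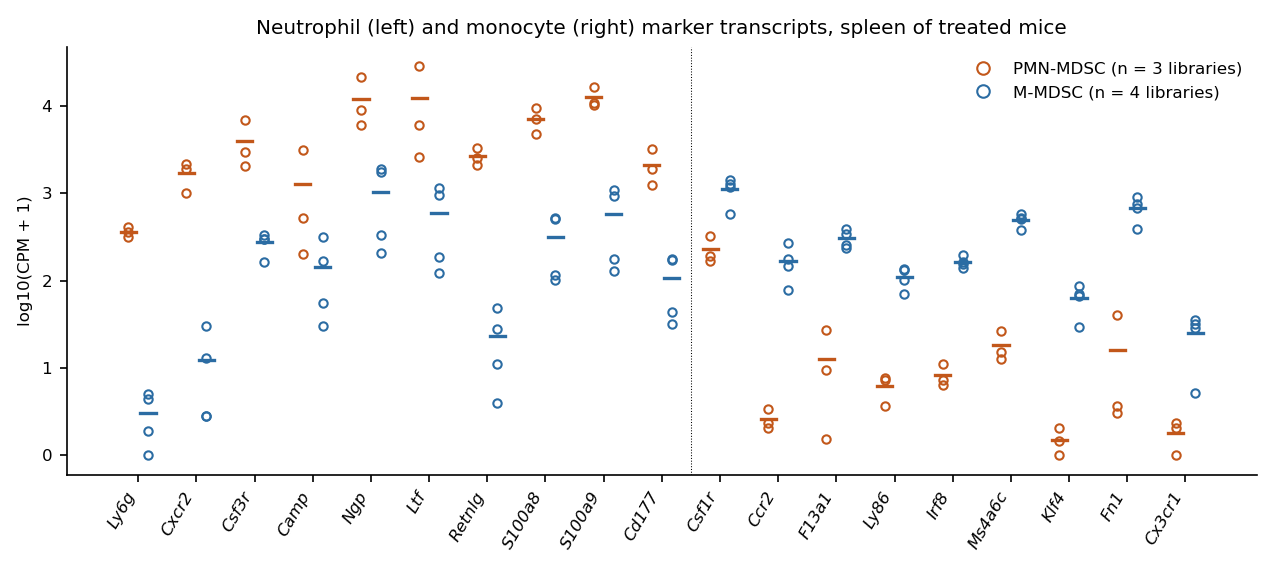
Levels of 10 neutrophil and 9 monocyte marker transcripts as log10(CPM + 1), 1 circle per library and a bar at the mean, PMN-MDSC in orange (n = 3) and M-MDSC in blue (n = 4). Among the neutrophil markers only the circles of Camp overlap between the groups, and the monocyte markers all lie higher in M-MDSC.

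Of the 10 neutrophil markers, Ly6g, Cxcr2 (log2 fold change 7.26, adjusted p = 0.000576), Csf3r (log2 fold change 3.85, adjusted p = 0.00029), Retnlg (log2 fold change 6.93, adjusted p = 0.000342) and S100a8 (log2 fold change 4.52, adjusted p = 0.000843) were called higher in PMN-MDSC. Cxcr2, the receptor that draws neutrophils out of the marrow, stood at 1017, 2151 and 1929 CPM in PMN-MDSC and 12.2, 1.78, 1.79 and 29.6 CPM in M-MDSC. S100a9, the partner of S100a8 in calprotectin, stood at 16810, 10290 and 10840 CPM in PMN-MDSC and 1087, 178, 129 and 942 CPM in M-MDSC and did not pass the test (log2 fold change 4.44 ± 0.8, adjusted p = 0.00188), nor did Cd177 (log2 fold change 4.34, adjusted p = 0.00118), Ngp (log2 fold change 3.54, adjusted p = 0.0079), Ltf (log2 fold change 4.36, adjusted p = 0.00856) or Camp (log2 fold change 3.19, adjusted p = 0.0315). Of the 10 monocyte markers, 6 were called higher in M-MDSC, among them Irf8, Ms4a6c, Ly86, Ccr2 and Klf4. The filter let 8 of the 10 through on M-MDSC alone, and 5 of the 6 called were among these. The 4 that missed the adjusted p of 0.001 were Csf1r (log2 fold change −2.28, adjusted p = 0.00132), F13a1 (log2 fold change −4.66, adjusted p = 0.00173), Fn1 (log2 fold change −5.63, adjusted p = 0.00205) and Cx3cr1 (log2 fold change −4.71, adjusted p = 0.00283). These 4 were higher in every M-MDSC library than in every PMN-MDSC library, as were 33.5% of all tested genes. Csf1r, the receptor for macrophage colony-stimulating factor, stood at 168, 327 and 192 CPM in PMN-MDSC and 1171, 1428, 1266 and 587 CPM in M-MDSC.

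The largest differences toward PMN-MDSC were in genes at low levels in most M-MDSC libraries, with library 4 the high one for Asprv1, Dhrs9 and Mmp9. Steap4, a metalloreductase, stood at 74.3, 487 and 256 CPM in PMN-MDSC and 0.338, 0.255, 0.298 and 0 CPM in M-MDSC, a ratio of 1270 (95% counting interval 434 to 6170) between the summed counts. For Steap4 the log2 fold change was 9.93 ± 0.85 (adjusted p = 0.000101). Scrg1 stood at 40.7, 42.3 and 52.4 CPM in PMN-MDSC and at 0 in all 4 M-MDSC libraries, at least 40.1-fold higher (adjusted p = 0.000112). Gpr27, an orphan G protein-coupled receptor, stood at 35.2, 27.9 and 53.3 CPM against 0 in the 4 M-MDSC libraries, at least 34.5-fold higher (adjusted p = 0.000198). Mmp9, gelatinase B of the tertiary granules (identifier ENSMUSG00000017737.2; GRCm38 chromosome 2, 164940780 to 164955850, + strand), stood at 5983, 5075 and 5278 CPM in PMN-MDSC and 13.2, 3.57, 1.49 and 43.9 CPM in M-MDSC. For Mmp9 the log2 fold change was 8.48 ± 1.11 (adjusted p = 0.000444). It combined a large difference with a high level in all 3 PMN-MDSC libraries. Amer2 (66.5, 104 and 40 CPM in PMN-MDSC and 1 count in M-MDSC), Asprv1 (log2 fold change 8.34, adjusted p = 0.000797), Phospho1 (log2 fold change 8.12, adjusted p = 0.000108) and Dhrs9, a retinol dehydrogenase (log2 fold change 7.99, adjusted p = 0.00029), complete the 8 largest. Prok2, a secreted ligand picked after its values were seen, had the largest fitted fold change of all genes and was not called: it stood at 26.6, 63 and 516 CPM in PMN-MDSC and at 0 in M-MDSC (adjusted p = 0.00557), with PMN-MDSC library 3 far above the other 2.

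Toward M-MDSC, 4 of the 8 largest differences were in genes with no count in any PMN-MDSC library. BC035044 stood at 28, 35.5, 34 and 20.6 CPM in M-MDSC, at least 12.6-fold higher (adjusted p = 0.000143). Fam78a stood at 24.3, 19.1, 22.6 and 20.6 CPM (at least 9.24-fold, adjusted p = 0.000118), Papss2, which makes the sulfate donor PAPS, at 18.2, 28.6, 18.5 and 18.7 CPM (at least 8.95-fold, adjusted p = 0.000182) and the serpin Serpinb8 at 16.5, 18.6, 20 and 19.9 CPM (at least 7.99-fold, adjusted p = 0.00013). S100a10, the partner of annexin A2, stood at 1.56, 1.03 and 0.444 CPM in PMN-MDSC and 108, 168, 104 and 101 CPM in M-MDSC (log2 fold change −6.95 ± 0.41, adjusted p = 6.28e-05). Ptpro, a receptor tyrosine phosphatase, stood at 2.35, 0 and 0 CPM in PMN-MDSC and 130, 208, 157 and 66.3 CPM in M-MDSC and Kdr, a receptor for vascular endothelial growth factor, at 0, 2.58 and 0 CPM in PMN-MDSC and 90.8, 238, 129.6 and 72.7 CPM in M-MDSC (adjusted p = 0.000191 and 0.000329). Kdr is also one of 7 stroma and endothelium markers, which summed to 31.3, 4.64 and 3.11 CPM in PMN-MDSC and to 91.2, 240, 135 and 78 CPM in M-MDSC. Kdr itself made up most of each M-MDSC sum, so these sums largely repeat its own levels. Aldh1b1, a mitochondrial aldehyde dehydrogenase, completes the 8 (log2 fold change −6.9, adjusted p = 0.000515).

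Levels of different genes are compared per kilobase of exon, as FPKM. By mean FPKM over the 7 libraries, the most abundant genes called higher in PMN-MDSC were S100a8 (10290 FPKM in PMN-MDSC and 450.2 FPKM in M-MDSC), Retnlg (4517 FPKM in PMN-MDSC and 37.3 FPKM in M-MDSC), Slfn4 (3289 FPKM in PMN-MDSC and 479 FPKM in M-MDSC), Mmp8 (2006 FPKM in PMN-MDSC and 25.5 FPKM in M-MDSC), Hp, haptoglobin (1431 FPKM in PMN-MDSC and 310 FPKM in M-MDSC), Mmp9 (1539 FPKM in PMN-MDSC and 4.39 FPKM in M-MDSC), S100a11 (1297 FPKM in PMN-MDSC and 145 FPKM in M-MDSC) and Ubb, a polyubiquitin gene (1013 FPKM in PMN-MDSC and 312 FPKM in M-MDSC). S100a8 (identifier ENSMUSG00000056054.9; GRCm38 chromosome 3, 90668978 to 90670035, + strand) stood at 9445, 4809 and 7174 CPM in PMN-MDSC and 505, 116, 102 and 527 CPM in M-MDSC. For S100a8 the log2 fold change was 4.52 ± 0.69 (adjusted p = 0.000843). M-MDSC libraries 1 and 4 were the high ones of their group, as they were for the neutrophil markers together. Ribosomal protein pseudogenes such as Rps23-ps1 (361 FPKM in PMN-MDSC and 908 FPKM in M-MDSC) ranked among the most abundant genes called higher in M-MDSC, and their reads may belong to the parent genes. Without pseudogenes and predicted genes, the most abundant served protein synthesis and folding, the lysosome or respiration. They were Eef1a1, elongation factor 1A (212 FPKM in PMN-MDSC and 764 FPKM in M-MDSC), Rplp1, a ribosomal stalk protein (268 FPKM in PMN-MDSC and 679 FPKM in M-MDSC), the chaperones Hspa8 (99.9 FPKM in PMN-MDSC and 500.4 FPKM in M-MDSC), Hsp90ab1 (116 FPKM in PMN-MDSC and 475 FPKM in M-MDSC) and Calr (51.4 FPKM in PMN-MDSC and 375 FPKM in M-MDSC), the lysosomal proteins Ctsz (109 FPKM in PMN-MDSC and 494 FPKM in M-MDSC) and Ifi30 (16.7 FPKM in PMN-MDSC and 459 FPKM in M-MDSC), and mt-Nd1, a mitochondrial subunit of complex I (82.7 FPKM in PMN-MDSC and 387 FPKM in M-MDSC). Eef1a1 stood at 661, 397 and 529 CPM in PMN-MDSC and 1783, 1890, 1789 and 2156 CPM in M-MDSC. For Eef1a1 the log2 fold change was −1.85 ± 0.24 (adjusted p = 0.000417).

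Primary granule genes held 2 calls in edgeR's quasi-likelihood test, both in M-MDSC. Of 12 primary granule genes, which promyelocytes express, 9 were tested, 0 were called higher in PMN-MDSC and 2 toward M-MDSC (0% and 22.2%), with a median log2 fold change of −2.12. The 2 called, Ctsc, which activates granule proteases (39.9, 37.7 and 55.5 CPM in PMN-MDSC and 682, 819.6, 915 and 452 CPM in M-MDSC; log2 fold change −4.01 ± 0.33, adjusted p = 8.48e-05), and Gusb, a lysosomal enzyme (log2 fold change −2.12, adjusted p = 0.000113), are also used by monocytes. DESeq2 and the fit over the 4 spleen groups each called 5 higher in M-MDSC and 1 in PMN-MDSC. Elane, neutrophil elastase (log2 fold change −6.44, adjusted p = 0.00173), Mpo, myeloperoxidase (log2 fold change −4.76, adjusted p = 0.00445), and Prtn3, proteinase 3 (log2 fold change −3.83, adjusted p = 0.00457), did not pass the test. Mpo stood at 3.91, 0 and 4.44 CPM in PMN-MDSC and 131, 45.6, 15.2 and 111 CPM in M-MDSC, with M-MDSC libraries 1 and 4 the high ones.

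Secondary granule genes were called in 1 direction. All 19 listed genes were tested, 5 were called higher in PMN-MDSC and 0 toward M-MDSC (26.3% and 0%), with a median log2 fold change of 2.95, and 2 had passed the filter through PMN-MDSC alone. Olfm4, an olfactomedin that marks a subset of neutrophils, stood at 290.2, 331 and 396 CPM in PMN-MDSC and 5.4, 1.53, 1.19 and 7.5 CPM in M-MDSC. For Olfm4 the log2 fold change was 6.49 ± 0.55 (adjusted p = 9.54e-05). Mmp8, neutrophil collagenase, stood at 3839, 4085 and 6668 CPM in PMN-MDSC and 59.1, 46.2, 22.9 and 119 CPM in M-MDSC. For Mmp8 the log2 fold change was 6.3 ± 0.6 (adjusted p = 0.000118). Hp (log2 fold change 2.21, adjusted p = 0.000195) and Tcn2, a cobalamin carrier (log2 fold change 1.73, adjusted p = 0.000127), followed. Ltf, lactoferrin, stood at 28550, 6079 and 2612 CPM in PMN-MDSC and 1148, 185, 122 and 962 CPM in M-MDSC, so PMN-MDSC library 1 held several times the level of the other 2 and its groups still did not overlap (log2 fold change 4.36 ± 1.08, adjusted p = 0.00856). Camp, the cathelicidin, stood at 3164, 521 and 199 CPM in PMN-MDSC and 314, 54.8, 28.9 and 168 CPM in M-MDSC (log2 fold change 3.19 ± 1.07, adjusted p = 0.0315), and PMN-MDSC library 3 lay below M-MDSC library 1. Lcn2, lipocalin 2, had a log2 fold change of 4.06 with adjusted p = 0.00249. Without M-MDSC libraries 1 and 4, 5 were called and the median was 4.92.

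Promoters of 5 called genes are shown to set neutrophil and monocyte genes side by side: the 2 secondary granule genes with the largest fold change, Olfm4 and Mmp8, the PMN-MDSC gene with the largest fitted difference among the called, Steap4, and 2 monocyte genes, Ccr2 and Klf4. Each is the RefSeq window on GRCm38.p6 from 250 bases before to 50 bases after the transcription start, 5′ to 3′ on the strand of the gene. Capitals mark matches, on either strand, to the motif of C/EBP factors (TTGCNNAA or TTNNGCAA), which drive granulocyte genes, of PU.1 (GAGGAA or TTCCTC), which both lineages use, or of the interferon-stimulated response element (GAAA, any 2 bases and GAAA again). The motifs of PU.1 and of the response element can share bases.
Olfm4, chr14:80000052-80000351, + strand: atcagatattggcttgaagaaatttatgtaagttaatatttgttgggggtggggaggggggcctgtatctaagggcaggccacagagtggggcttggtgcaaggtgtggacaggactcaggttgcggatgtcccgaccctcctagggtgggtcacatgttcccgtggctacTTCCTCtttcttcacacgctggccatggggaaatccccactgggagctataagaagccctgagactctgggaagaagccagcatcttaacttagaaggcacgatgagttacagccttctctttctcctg
Mmp8, chr9:7558179-7558478, + strand: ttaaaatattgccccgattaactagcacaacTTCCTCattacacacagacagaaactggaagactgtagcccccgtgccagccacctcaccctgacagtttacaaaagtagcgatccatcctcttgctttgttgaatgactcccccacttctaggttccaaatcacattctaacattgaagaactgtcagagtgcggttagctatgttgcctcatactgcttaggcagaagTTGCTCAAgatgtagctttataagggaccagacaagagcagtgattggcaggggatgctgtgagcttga
Steap4, chr5:7960222-7960521, + strand: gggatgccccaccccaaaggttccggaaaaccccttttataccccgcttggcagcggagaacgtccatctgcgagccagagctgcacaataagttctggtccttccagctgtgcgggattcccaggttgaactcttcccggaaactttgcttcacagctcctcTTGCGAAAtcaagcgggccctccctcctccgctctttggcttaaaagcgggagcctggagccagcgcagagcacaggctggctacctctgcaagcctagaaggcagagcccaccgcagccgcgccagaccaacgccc
Ccr2, chr9:124101933-124102232, + strand: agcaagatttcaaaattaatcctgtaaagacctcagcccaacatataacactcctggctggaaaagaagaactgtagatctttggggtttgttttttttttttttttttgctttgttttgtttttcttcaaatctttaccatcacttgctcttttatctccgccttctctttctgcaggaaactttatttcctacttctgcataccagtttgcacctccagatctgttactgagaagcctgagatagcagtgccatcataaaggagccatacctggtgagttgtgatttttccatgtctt
Klf4, chr4:55532426-55532725, − strand: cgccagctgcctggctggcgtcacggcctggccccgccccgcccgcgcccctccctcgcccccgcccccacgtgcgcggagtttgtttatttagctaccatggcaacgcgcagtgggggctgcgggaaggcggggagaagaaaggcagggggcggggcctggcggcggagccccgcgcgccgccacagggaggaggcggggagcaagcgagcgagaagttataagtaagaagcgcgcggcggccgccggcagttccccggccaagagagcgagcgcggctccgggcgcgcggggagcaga
Mmp8 held a C/EBP match 19 bases before the start and a PU.1 match 219 bases before it. Steap4 held a C/EBP match 87 bases before the start and Olfm4 a PU.1 match 79 bases before it. The windows of Ccr2 and Klf4 held none of these letters. Over all 32851 windows in the table, 10.8% held a C/EBP match, 28.3% a PU.1 match and 3.44% a response element match. A window was found for 6144 of the 8153 tested genes and for 1319 of the 1728 called genes. The C/EBP share was 9.39% of 841 windows of genes called higher in PMN-MDSC and 7.66% of 836 windows of genes called higher in M-MDSC, with 8.51% over the windows of tested genes. The response element share was 2.5% and 3.35%, with 3.8% over the tested genes, and the PU.1 share 30% and 28.5%, with 28.1%. These shares lay close to those of the tested genes, and a match is a run of letters, not a bound site.

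The largest share of calls toward PMN-MDSC was among genes of mature neutrophils, beside tertiary granule genes. Of 12 tertiary granule genes 11 were tested, 5 were called higher in PMN-MDSC (among them Mmp9, Adam8, Mmp25 and Itgam) and 1 in M-MDSC (Stx3, a syntaxin, log2 fold change −3.45, adjusted p = 0.000493), shares of 45.5% and 9.09%, with a median of 1. Of the 6 called, 2 had passed the filter through 1 group alone. The 5 became 1 without M-MDSC library 1, 2 without M-MDSC library 2 and 3 without M-MDSC library 3 or PMN-MDSC library 2 or 3. Mmp25, a membrane-anchored metalloproteinase, stood at 624, 436 and 498 CPM in PMN-MDSC and 25.7, 12.5, 6.56 and 36.7 CPM in M-MDSC. For Mmp25 the log2 fold change was 4.68 ± 0.54 (adjusted p = 0.000228). Adam8, a sheddase, had a log2 fold change of 3.79 with adjusted p = 0.000189. Of 35 genes of mature neutrophils 31 were tested, 22 were called higher in PMN-MDSC and 0 toward M-MDSC (71% and 0%), with a median log2 fold change of 4.11 against −0.11 for all tested genes, and 7 had passed the filter through PMN-MDSC alone. Trem1, which amplifies inflammatory signals, stood at 254, 401 and 396 CPM in PMN-MDSC and 36.8, 26, 33.1 and 36 CPM in M-MDSC. For Trem1 the log2 fold change was 3.41 ± 0.23 (adjusted p = 6.28e-05). Padi4, which citrullinates histones in neutrophil extracellular traps, stood at 1112, 943 and 829 CPM in PMN-MDSC and 63.8, 30.1, 51.6 and 77.6 CPM in M-MDSC. For Padi4 the log2 fold change was 4.11 ± 0.33 (adjusted p = 8.25e-05). Grina stood at 869, 1634 and 1657 CPM in PMN-MDSC and 101, 123, 127 and 125 CPM in M-MDSC. For Grina the log2 fold change was 3.54 ± 0.27 (adjusted p = 7.33e-05). The M-MDSC libraries lay close to each other for Trem1 and Grina. Without M-MDSC libraries 1 and 4, 15 were called higher in PMN-MDSC and the median was 5.41.

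No gene of immature neutrophils and proliferating precursors was called. Of 19 listed genes 17 were tested and 0 passed the thresholds of edgeR's quasi-likelihood test in either direction, 9 had passed the filter through 1 group alone, and the median was −1.5. At an adjusted p under 0.05, 3 were higher in PMN-MDSC and 4 toward M-MDSC, and DESeq2 called 1 and 4. Cebpe, the transcription factor of secondary granule genes, did not pass (log2 fold change 2.08, adjusted p = 0.0329). Mki67, a proliferation marker, stood at 392, 48.5 and 28.9 CPM in PMN-MDSC and 771, 148, 202 and 1008 CPM in M-MDSC (log2 fold change −1.78 ± 1.04, adjusted p = 0.17). PMN-MDSC library 1 and M-MDSC libraries 1 and 4 were the high ones in their groups, as for Top2a (223, 16.5 and 7.99 CPM in PMN-MDSC and 272, 88.5, 65.9 and 286 CPM in M-MDSC; log2 fold change −1.14 ± 1.08, adjusted p = 0.382). PMN-MDSC library 1 was also the high one for Ltf, Camp and Ngp.

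Monocyte genes held 17 calls in M-MDSC, 13 of them in genes that the filter let through on M-MDSC alone. Of 42 listed genes 41 were tested, 17 were called higher in M-MDSC (41.5%) and 2 in PMN-MDSC (4.88%), with a median log2 fold change of −2.65, and 18 had passed the filter through M-MDSC alone. Ccr2, the receptor that brings monocytes into blood and tissue (identifier ENSMUSG00000049103.14; GRCm38 chromosome 9, 124101950 to 124113557, + strand), stood at 2.35, 1.03 and 1.33 CPM in PMN-MDSC and 270.1, 148, 178 and 76.5 CPM in M-MDSC. For Ccr2 the log2 fold change was −6.78 ± 0.6 (adjusted p = 0.000105). Ms4a6c stood at 11.7, 14.4 and 25.8 CPM in PMN-MDSC and 505, 527, 579 and 377 CPM in M-MDSC. For Ms4a6c the log2 fold change was −4.82 ± 0.34 (adjusted p = 6.32e-05). Ms4a6d stood at 7.82, 3.61 and 7.11 CPM in PMN-MDSC and 254, 308, 304 and 182 CPM in M-MDSC. For Ms4a6d the log2 fold change was −5.42 ± 0.35 (adjusted p = 6.28e-05). Ly86, which encodes MD-1, the partner of the receptor RP105, had a log2 fold change of −4.43 with adjusted p = 0.00011. The 2 members called higher in PMN-MDSC were Cd14, the lipopolysaccharide co-receptor (127, 282 and 529 CPM in PMN-MDSC and 15.9, 14.8, 17.3 and 34.5 CPM in M-MDSC; log2 fold change 3.93 ± 0.52, adjusted p = 0.000423), and Emb, embigin (log2 fold change 1.46, adjusted p = 0.00062). M-MDSC library 4 was the high one of its group for Cd14. Without M-MDSC libraries 1 and 4, 11 members were called higher in M-MDSC and 0 in PMN-MDSC.

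Of 25 macrophage and dendritic cell genes 11 were tested, and 3 were called higher in M-MDSC (27.3%), 1 of them let through by the filter on M-MDSC alone. They were Msr1, a scavenger receptor (6.26, 3.1 and 2.67 CPM in PMN-MDSC and 126, 93.1, 237 and 75.3 CPM in M-MDSC; log2 fold change −5.12 ± 0.56, adjusted p = 0.000192), Adgre1, which encodes F4/80 (log2 fold change −2.65, adjusted p = 0.00036), and Axl, a receptor for dying cells (27.4, 12.4 and 7.11 CPM in PMN-MDSC and 354, 676, 398 and 142 CPM in M-MDSC; log2 fold change −4.7 ± 0.68, adjusted p = 0.000677). The other 8 tested members did not pass. Axl is also a marker of red pulp macrophages. The sum of these 8 markers lay in the same range in both groups. Of the 8, 6 had a negative log2 fold change, Axl among them, and 2 a positive one.

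Lineage transcription factors held 7 calls in each direction. Of 45 listed genes 41 were tested (17.1% called each way), and 13 had passed the filter through M-MDSC alone, among them all 7 that were called higher in M-MDSC and so had to differ. Klf4, required for inflammatory monocytes (identifier ENSMUSG00000003032.8; GRCm38 chromosome 4, 55527143 to 55532466, − strand), stood at 0, 1.03 and 0.444 CPM in PMN-MDSC and 65.2, 69.6, 86.4 and 28.5 CPM in M-MDSC. For Klf4 the log2 fold change was −6.72 ± 0.66 (adjusted p = 0.000136). Irf8, which directs progenitors to monocytes and away from neutrophils, stood at 10.2, 6.19 and 5.33 CPM in PMN-MDSC and 164, 195, 156 and 137 CPM in M-MDSC (log2 fold change −4.54 ± 0.28, adjusted p = 6.28e-05). Nr1h3, the oxysterol receptor LXRα (15.7, 5.68 and 6.66 CPM in PMN-MDSC and 127, 194, 209.8 and 163 CPM in M-MDSC; log2 fold change −4.28 ± 0.39, adjusted p = 0.000113), followed the same direction. Toward PMN-MDSC, Mxd1, an antagonist of MYC in cells that stop dividing, stood at 3467, 4860 and 3744 CPM in PMN-MDSC and 146, 164, 135 and 203 CPM in M-MDSC. For Mxd1 the log2 fold change was 4.63 ± 0.26 (adjusted p = 6.28e-05). Cebpd stood at 354, 469 and 270.5 CPM in PMN-MDSC and 42.9, 41.1, 26.8 and 28.9 CPM in M-MDSC. For Cebpd the log2 fold change was 3.38 ± 0.27 (adjusted p = 8.25e-05). Klf6 stood at 413, 775 and 568 CPM in PMN-MDSC and 113, 109.7, 103 and 104 CPM in M-MDSC. For Klf6 the log2 fold change was 2.45 ± 0.23 (adjusted p = 0.000118). Spi1, which encodes PU.1 (log2 fold change 1.44, adjusted p = 0.00124), Cebpa (log2 fold change −0.15, adjusted p = 0.699) and Gfi1 (log2 fold change −0.63, adjusted p = 0.42) did not pass the test. The libraries of the groups lay far apart for each called factor, and Klf4 was at or below the level of 3 counts in all PMN-MDSC libraries.

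Receptors for growth factors held 4 calls and receptors for chemotactic ligands 9. Of 20 growth factor receptors 16 were tested, 3 were called higher in PMN-MDSC and 1 toward M-MDSC (18.8% and 6.25%), the latter let through by the filter on M-MDSC alone. The 3 became 0 without M-MDSC library 1, 2 or 3, 1 without PMN-MDSC library 2 or 3 and 5 without PMN-MDSC library 1. Csf3r, the receptor for granulocyte colony-stimulating factor, stood at 2039, 6864 and 2994 CPM in PMN-MDSC and 300.1, 331, 302 and 163 CPM in M-MDSC. For Csf3r the log2 fold change was 3.85 ± 0.47 (adjusted p = 0.00029). The interleukin-17 receptor subunit Il17ra (log2 fold change 1.78, adjusted p = 0.000444) and the tumor necrosis factor receptor Tnfrsf1a (log2 fold change 1.7, adjusted p = 0.000369) were higher in PMN-MDSC, and Il6st, which encodes gp130, the shared subunit of the interleukin-6 receptor family, was higher in M-MDSC (3.13, 3.61 and 1.78 CPM in PMN-MDSC and 106, 176, 103 and 72.3 CPM in M-MDSC; log2 fold change −5.34 ± 0.44, adjusted p = 8.49e-05). Of 24 chemotactic receptors 17 were tested, 7 were called higher in PMN-MDSC and 2, Ccr2 among them, in M-MDSC (41.2% and 11.8%), and 4 of the 9 had passed the filter through 1 group alone. Ccr1 stood at 429.5, 791 and 768 CPM in PMN-MDSC and 44.2, 27, 46.8 and 76.8 CPM in M-MDSC (log2 fold change 3.77 ± 0.39, adjusted p = 0.000152). The formyl peptide receptor Fpr1 stood at 274, 402 and 400.1 CPM in PMN-MDSC and 30.4, 42.3, 71.5 and 57 CPM in M-MDSC. For Fpr1 the log2 fold change was 2.83 ± 0.31 (adjusted p = 0.000192). Its relative Fpr2 stood at 545, 431 and 604 CPM in PMN-MDSC and 110.1, 143, 142 and 105 CPM in M-MDSC. For Fpr2 the log2 fold change was 2.07 ± 0.21 (adjusted p = 0.000141). S1pr4, a sphingosine 1-phosphate receptor, had a log2 fold change of 3.85 with adjusted p = 0.000113. Only 9 of 21 chemokine ligands were tested, and 2 (22.2%) were called, both higher in M-MDSC and 1 of them let through on M-MDSC alone: Ccl9 (8.61, 8.26 and 5.77 CPM in PMN-MDSC and 108, 109, 106 and 68.2 CPM in M-MDSC; log2 fold change −3.71 ± 0.28, adjusted p = 6.56e-05) and Ccl5, a ligand of CCR1 (27.4, 32.5 and 55.5 CPM in PMN-MDSC and 160, 423, 291 and 306 CPM in M-MDSC; log2 fold change −2.93 ± 0.4, adjusted p = 0.0005). The interferon-inducible ligands of CXCR3, Cxcl9 (log2 fold change −3.6, adjusted p = 0.00314) and Cxcl10 (log2 fold change −2.44, adjusted p = 0.00852), did not pass. With 1 library left out, 1 or 2 chemokine ligands were called, and Ccl5 kept its call in 1 of the 7 omissions.

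Interferon-stimulated genes held 13 calls between the cell types after poly(I:C)c, and their share against all genes turned with the test. Of 91 listed genes 90 were tested, 8 were called higher in PMN-MDSC and 5 toward M-MDSC, shares of 8.89% and 5.56% that lie below the 10.2% and 11% of all tested genes. Of the 13, 3 had passed the filter through M-MDSC alone and 1 through PMN-MDSC alone, and these 4 had to differ. DESeq2 called 25.6% higher in PMN-MDSC against 19.3% of all tested genes, the fit over the 4 spleen groups 23.3% against 17.3%, and an adjusted p under 0.05 gave 32.2% against 20.6%. Toward M-MDSC the shares in these settings stayed below those of all tested genes, at 11.1%, 8.89% and 12.2% against 20.7%, 20.2% and 26.8%. Isg15, a ubiquitin-like modifier, stood at 178, 465 and 359 CPM in PMN-MDSC and 160.4, 339, 196 and 135 CPM in M-MDSC (log2 fold change 0.69 ± 0.4, adjusted p = 0.167), and the libraries of the 2 cell types overlapped. Irf7 (log2 fold change 0.3, adjusted p = 0.463) and Ifit1 (log2 fold change 1.76, adjusted p = 0.00551) did not pass either. Mx1 had a log2 fold change of −2.09 with adjusted p = 0.0122. Slfn4, a myeloid schlafen gene, stood at 7376, 19070 and 12670 CPM in PMN-MDSC and 1680, 1674, 2579 and 1669 CPM in M-MDSC. For Slfn4 the log2 fold change was 2.78 ± 0.37 (adjusted p = 0.000426). Its relative Slfn1 stood at 1248, 2019 and 1857 CPM in PMN-MDSC and 391, 468, 551 and 413 CPM in M-MDSC (log2 fold change 1.91 ± 0.24, adjusted p = 0.000336). Ifitm1 (log2 fold change 5.1, adjusted p = 0.000203) was also higher in PMN-MDSC. Toward M-MDSC, the guanosine triphosphatase Iigp1 stood at 3.13, 2.06 and 3.55 CPM in PMN-MDSC and 80.7, 74, 167 and 74.2 CPM in M-MDSC. For Iigp1 the log2 fold change was −5.06 ± 0.46 (adjusted p = 0.00011). Ifi205 stood at 9.39, 6.71 and 9.33 CPM in PMN-MDSC and 242, 261, 408 and 199 CPM in M-MDSC. For Ifi205 the log2 fold change was −5.03 ± 0.34 (adjusted p = 6.28e-05). Ms4a4c stood at 5.48, 14.4 and 15.1 CPM in PMN-MDSC and 307, 376, 395 and 220 CPM in M-MDSC (log2 fold change −4.75 ± 0.4, adjusted p = 9.08e-05), and Pml followed (log2 fold change −1.63, adjusted p = 0.000525). The list's counts moved with scaling and libraries, as did those of all tested genes. With library totals alone 3 were called higher in PMN-MDSC and 9 toward M-MDSC (3.33% and 10%, beside 5.42% and 18.9% of all tested genes). Without M-MDSC libraries 1 and 4 the counts were 0 and 3 (0% and 3.33%, beside 2.27% and 2.17%).

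Sensors and signalling genes of the interferon pathway held 5 calls. Of 35 listed genes 34 were tested, 1 was called higher in PMN-MDSC (2.94%, below the 10.2% of all tested genes) and 4 toward M-MDSC (11.8%, near the 11% of all tested genes). All 4 had passed the filter through M-MDSC alone and so had to differ. Irf9, the DNA-binding subunit of the interferon-activated complex ISGF3, stood at 349.7, 436 and 392 CPM in PMN-MDSC and 135, 182, 150.2 and 126 CPM in M-MDSC (log2 fold change 1.4 ± 0.19, adjusted p = 0.000468), a call lost with upper-quartile scaling and with library totals alone. Mavs, the mitochondrial adaptor of MDA5 and RIG-I, stood at 1.56, 2.06 and 0.444 CPM in PMN-MDSC and 23.3, 29.8, 22.4 and 20.2 CPM in M-MDSC. For Mavs the log2 fold change was −4.15 ± 0.45 (adjusted p = 0.000189). The cytosolic DNA sensor Cgas (10.9, 10.3 and 8.88 CPM in PMN-MDSC and 47.9, 49.2, 42.3 and 30.4 CPM in M-MDSC; log2 fold change −2.08 ± 0.25, adjusted p = 0.000284) and its adaptor Tmem173, which encodes STING (19.6, 7.22 and 11.1 CPM in PMN-MDSC and 105, 169, 113 and 50.6 CPM in M-MDSC; log2 fold change −3.15 ± 0.49, adjusted p = 0.000901), were higher in M-MDSC, and Irf8 was the remaining one. Ifih1, which encodes MDA5, stood at 174, 523 and 369.5 CPM in PMN-MDSC and 366, 442, 476 and 239 CPM in M-MDSC (log2 fold change −0.1 ± 0.38, adjusted p = 0.833), and the receptor subunits Ifnar1 (log2 fold change 0.23, adjusted p = 0.379) and Ifnar2 (log2 fold change 0.62, adjusted p = 0.0102) did not pass.

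**Figure D3:**
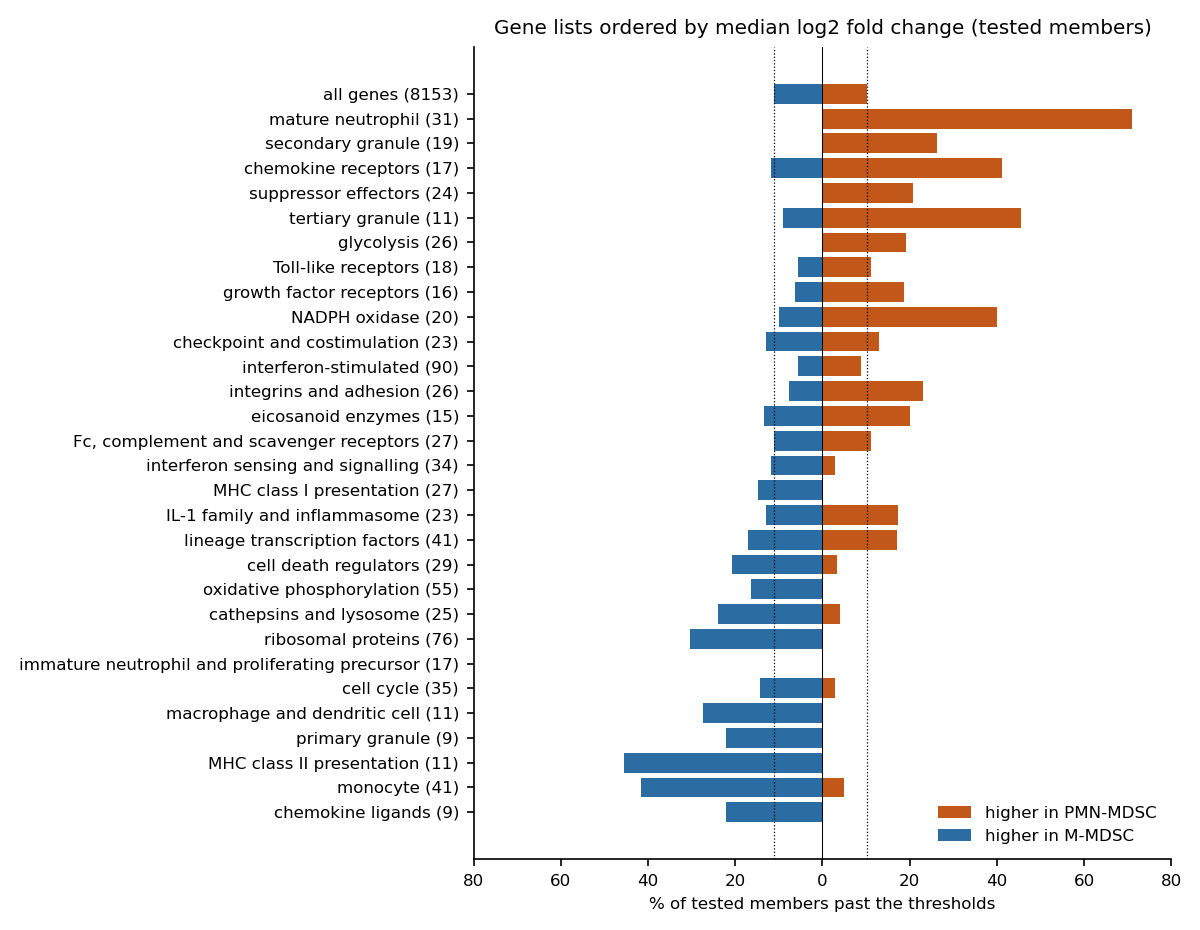
Percentage of the tested members of each gene list called higher in PMN-MDSC (orange, to the right) or in M-MDSC (blue, to the left), with the number of tested members in brackets, lists ordered by their median log2 fold change and all tested genes at the top. Dotted lines stand at the 10.2% and 11% of all tested genes, which the bar of mature neutrophil genes exceeds most to the right and that of MHC class II genes most to the left.

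MHC class I presentation genes held 4 calls in edgeR's quasi-likelihood test, all in chaperones. All 27 listed genes were tested, 0 were called higher in PMN-MDSC and 4 toward M-MDSC (0% and 14.8%). The 4 were Calr (195, 131 and 119 CPM in PMN-MDSC and 879.5, 1184, 1031 and 1224 CPM in M-MDSC; log2 fold change −2.87 ± 0.26, adjusted p = 0.000113), Pdia3 (log2 fold change −2.07, adjusted p = 0.000477), Canx (log2 fold change −2.63, adjusted p = 0.000498) and Hspa5 (log2 fold change −1.93, adjusted p = 0.000948), chaperones of the endoplasmic reticulum that serve many other proteins. The number was 3 without PMN-MDSC library 1 and 1, Calr, without any other single library, and Hspa5 was called in 0 of the 7 omissions. DESeq2 called 2 members higher in PMN-MDSC, H2-D1 among them, and 6 in M-MDSC. H2-K1 stood at 1690, 3112 and 2526 CPM in PMN-MDSC and 1404, 1795, 1965 and 1685 CPM in M-MDSC. For H2-K1 the log2 fold change was 0.51 ± 0.26 (adjusted p = 0.122). H2-D1 (log2 fold change 1.11, adjusted p = 0.00606), B2m (log2 fold change 0.49, adjusted p = 0.133) and Tap1, the peptide transporter (log2 fold change 0.67, adjusted p = 0.0343), did not pass. MHC class I genes are near-identical copies whose reads can be split. Of 15 MHC class II genes 11 were tested, 0 were called higher in PMN-MDSC and 5 toward M-MDSC (0% and 45.5%), with a median of −2.35, and 6 had passed the filter through M-MDSC alone. Ifi30, the lysosomal thiol reductase, stood at 26.6, 11.3 and 11.1 CPM in PMN-MDSC and 459.8, 578, 434 and 331 CPM in M-MDSC (log2 fold change −4.82 ± 0.4, adjusted p = 9.08e-05). Cd74, the invariant chain, stood at 68.8, 84.1 and 51.1 CPM in PMN-MDSC and 344, 470.5, 189 and 378 CPM in M-MDSC (log2 fold change −2.35 ± 0.34, adjusted p = 0.000696), and Lgmn, a lysosomal protease, had a log2 fold change of −2.86 with adjusted p = 0.000526. H2-DMa was called (log2 fold change −4.1, adjusted p = 0.00065) and H2-Ab1 was not (log2 fold change −2.19, adjusted p = 0.0014). B cells also express these genes, and B cell markers were high in M-MDSC library 4. Without that library 3 were called. The number was 1 without M-MDSC library 1 or 2 or PMN-MDSC library 2 or 3, 2 without PMN-MDSC library 1, 4 without M-MDSC library 3 and 1 without M-MDSC libraries 1 and 4, with a median of −2.33 in the last.

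Checkpoint genes held 3 calls in each direction and suppressor genes 5, all in PMN-MDSC. Of 31 checkpoint and costimulation genes 23 were tested, and 3 were called in each direction, a share of 13% near the 10.2% and 11% of all tested genes, and the 3 in M-MDSC had passed the filter through that group alone. Vsir, which encodes the inhibitory receptor VISTA, stood at 1256, 1346 and 1545 CPM in PMN-MDSC and 331, 274, 339.7 and 313 CPM in M-MDSC. For Vsir the log2 fold change was 2.14 ± 0.18 (adjusted p = 9.85e-05). The inhibitory lectin Cd33 stood at 925, 1427 and 1253 CPM in PMN-MDSC and 47.9, 14.3, 22.6 and 61.5 CPM in M-MDSC (log2 fold change 5.04 ± 0.52, adjusted p = 0.000152) and Siglece, a relative, had a log2 fold change of 3 with adjusted p = 0.000555. Toward M-MDSC, Cd48 stood at 3.91, 3.61 and 4 CPM in PMN-MDSC and 52.7, 46.7, 82 and 52.9 CPM in M-MDSC. For Cd48 the log2 fold change was −3.91 ± 0.3 (adjusted p = 7.33e-05). Havcr2, which encodes TIM-3, stood at 8.61, 9.8 and 7.99 CPM in PMN-MDSC and 72.9, 63.8, 79 and 48.7 CPM in M-MDSC. For Havcr2 the log2 fold change was −2.9 ± 0.25 (adjusted p = 9.54e-05). Cd40, a costimulatory receptor, stood at 3.13, 1.03 and 1.78 CPM in PMN-MDSC and 95.2, 214, 89.1 and 27.7 CPM in M-MDSC. For Cd40 the log2 fold change was −5.81 ± 0.86 (adjusted p = 0.000769). Cd274, which encodes PD-L1, stood at 71.2, 207 and 99.5 CPM in PMN-MDSC and 122, 168, 185 and 111 CPM in M-MDSC, and the groups overlapped (log2 fold change −0.21 ± 0.37, adjusted p = 0.631). Cd86 did not pass (log2 fold change −1.18, adjusted p = 0.0331). With 1 library left out, 2 to 5 checkpoint and costimulation genes were called higher in PMN-MDSC and 2 or 3 in M-MDSC. Of 33 suppressor effector genes 24 were tested, 5 were called higher in PMN-MDSC and 0 toward M-MDSC (20.8% and 0%), and 2 of the 5 had passed the filter through PMN-MDSC alone. With upper-quartile scaling or with library totals alone 2 were called. The number was 1 without M-MDSC library 1, 2 or 3, 2 without PMN-MDSC library 2 and 3 without PMN-MDSC library 3 or M-MDSC library 4. Ncf1, an organizer of the NADPH oxidase, stood at 3018, 1957 and 1744 CPM in PMN-MDSC and 553, 438, 388 and 453 CPM in M-MDSC. For Ncf1 the log2 fold change was 2.29 ± 0.26 (adjusted p = 0.00021). Entpd1, which encodes the ectonucleotidase CD39, had a log2 fold change of 2.79 with adjusted p = 0.000702, and Ptger2, a prostaglandin E2 receptor, of 2.58 with adjusted p = 0.000742. Nos2, inducible nitric oxide synthase, stood at 3.13, 6.19 and 216 CPM in PMN-MDSC and 1.69, 1.27, 1.79 and 7.87 CPM in M-MDSC (log2 fold change 4.64 ± 1.4, adjusted p = 0.0203), with PMN-MDSC libraries far apart. Acod1, which makes itaconate, did not pass (log2 fold change −0.44, adjusted p = 0.387).

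NADPH oxidase genes held 10 calls and Toll-like receptor genes 3. Of 22 Toll-like receptor genes 18 were tested, 2 were called higher in PMN-MDSC (Tirap, an adaptor of TLR2 and TLR4, log2 fold change 2.35, adjusted p = 0.00011, and Cd14) and 1 in M-MDSC (Tlr9, the receptor for CpG DNA, 3.91, 3.61 and 5.33 CPM in PMN-MDSC and 137, 227, 203 and 95.6 CPM in M-MDSC; log2 fold change −5.24 ± 0.41, adjusted p = 7.83e-05). These are shares of 11.1% and 5.56%, the first near the 10.2% of all tested genes. Tlr9 had passed the filter through M-MDSC alone. With 1 library left out, 1 to 4 members were called higher in PMN-MDSC and 1 or 2 in M-MDSC. Tlr7, which senses single-stranded RNA, did not pass (log2 fold change −0.12, adjusted p = 0.84), and Tlr3 was too low to be tested (0, 0.516 and 2.67 CPM in PMN-MDSC and 8.78, 7.91, 15.8 and 10.9 CPM in M-MDSC). All 20 NADPH oxidase genes were tested, 8 were called higher in PMN-MDSC and 2 toward M-MDSC, shares of 40% and 10% beside the 10.2% and 11% of all tested genes. Rac2, the small GTPase of the oxidase, stood at 1447, 1548 and 1477 CPM in PMN-MDSC and 279, 236, 266 and 292 CPM in M-MDSC. For Rac2 the log2 fold change was 2.47 ± 0.18 (adjusted p = 6.32e-05). Ncf4, a cytosolic subunit, stood at 595, 458 and 571 CPM in PMN-MDSC and 189.7, 198, 194 and 180.3 CPM in M-MDSC. For Ncf4 the log2 fold change was 1.51 ± 0.17 (adjusted p = 0.000203). Pgd, which yields NADPH, stood at 1131, 1161 and 849 CPM in PMN-MDSC and 257, 203, 227 and 208 CPM in M-MDSC (log2 fold change 2.23 ± 0.2, adjusted p = 0.000108). Cybb, the catalytic subunit, did not pass (log2 fold change 0.2, adjusted p = 0.745). Sod1, superoxide dismutase (15.7, 17 and 24.9 CPM in PMN-MDSC and 82.7, 82.1, 75.1 and 88.5 CPM in M-MDSC; log2 fold change −2.08 ± 0.21, adjusted p = 0.000152), and catalase were called higher in M-MDSC. Of the called NADPH oxidase genes, 1 had passed the filter through M-MDSC alone. With library totals alone the counts were 4 and 3 (20% and 15%, beside 5.42% and 18.9% of all tested genes). Without M-MDSC libraries 1 and 4 they were 1 and 0 (5% and 0%, beside 2.27% and 2.17%).

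Inflammatory mediators and surface receptors included large differences in both directions. Of 23 eicosanoid genes 15 were tested, 3 were called higher in PMN-MDSC and 2 toward M-MDSC: Alox5, the lipoxygenase of leukotriene synthesis (529.6, 487 and 318 CPM in PMN-MDSC and 38.5, 11.5, 10.4 and 40.9 CPM in M-MDSC; log2 fold change 4.14 ± 0.54, adjusted p = 0.000409), its activating protein Alox5ap (log2 fold change 2.33, adjusted p = 0.000387) and Ptger2 against Cysltr1, a leukotriene receptor (log2 fold change −5.5, adjusted p = 0.000262), and Ptges3 (log2 fold change −1.55, adjusted p = 0.000531), shares of 20% and 13.3%. Of 27 genes of the IL-1 family and inflammasome 23 were tested, 4 were called higher in PMN-MDSC and 3 toward M-MDSC (17.4% and 13%), and 4 of the 7 had passed the filter through 1 group alone. Il1f9, which encodes IL-36γ, stood at 272, 633 and 459 CPM in PMN-MDSC and 7.43, 1.53, 0.894 and 6.37 CPM in M-MDSC. For Il1f9 the log2 fold change was 6.85 ± 0.67 (adjusted p = 0.00014). Il18rap, a subunit of the IL-18 receptor, stood at 426, 409 and 371 CPM in PMN-MDSC and 24.6, 13.8, 10.1 and 31.9 CPM in M-MDSC. For Il18rap the log2 fold change was 4.33 ± 0.39 (adjusted p = 0.000108). Il1rap (log2 fold change 2.88, adjusted p = 0.000118) and Nlrp12 (log2 fold change 5.72, adjusted p = 0.00088) were also higher in PMN-MDSC. Il1b stood at 436, 1677 and 279 CPM in PMN-MDSC and 41.2, 59.7, 29.5 and 15 CPM in M-MDSC (log2 fold change 4.45 ± 0.72, adjusted p = 0.00115) and missed the threshold. The inflammasome sensor Nlrc4 (9.39, 13.4 and 14.2 CPM in PMN-MDSC and 69.5, 82.6, 75.4 and 59.6 CPM in M-MDSC; log2 fold change −2.52 ± 0.23, adjusted p = 0.00011) and the ATP-gated channels P2rx7 (log2 fold change −4.37, adjusted p = 0.00014) and P2rx4 (log2 fold change −2.58, adjusted p = 0.00011) were higher in M-MDSC. Of 30 integrin and adhesion genes 26 were tested, 6 were called higher in PMN-MDSC, with Cd9 (log2 fold change 3.17, adjusted p = 9.53e-05), Itgb3 (log2 fold change 3.22, adjusted p = 0.000127) and the selectin ligand Selplg (log2 fold change 2.95, adjusted p = 0.000184) among them, and 2 in M-MDSC, Itgb1 (log2 fold change −1.82, adjusted p = 0.000807) and Itgb5 (log2 fold change −3.97, adjusted p = 0.000188), shares of 23.1% and 7.69%. Of 35 Fc, complement and scavenger receptor genes 27 were tested, and 3 were called in each direction, 11.1% as against 10.2% and 11% of all tested genes. Fcgr3, an activating Fc receptor (log2 fold change 2.82, adjusted p = 0.000118), Clec4d (log2 fold change 4.55, adjusted p = 0.000124) and C5ar1, the receptor for C5a (336, 529 and 435 CPM in PMN-MDSC and 46.2, 29.8, 57.8 and 79.8 CPM in M-MDSC; log2 fold change 3.02 ± 0.34, adjusted p = 0.000203), were higher in PMN-MDSC. Among the called genes, 2 eicosanoid genes, 1 integrin or adhesion gene and 2 Fc, complement or scavenger receptor genes had passed the filter through 1 group alone.

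Glycolysis genes were called only in PMN-MDSC, and genes of oxidative phosphorylation and ribosomal proteins only in M-MDSC. Of 28 glycolysis genes 26 were tested, 5 were called higher in PMN-MDSC and 0 toward M-MDSC (19.2% and 0%), with a median of 0.85. Pygl, glycogen phosphorylase, stood at 2108, 2292 and 2184 CPM in PMN-MDSC and 224, 147, 130.5 and 204 CPM in M-MDSC. For Pygl the log2 fold change was 3.64 ± 0.26 (adjusted p = 6.28e-05). Gpi1, glucose phosphate isomerase, stood at 1622, 1488 and 1973 CPM in PMN-MDSC and 381, 262, 300.1 and 446 CPM in M-MDSC (log2 fold change 2.29 ± 0.25, adjusted p = 0.000183), and Slc16a3, a lactate exporter (log2 fold change 2.71, adjusted p = 9.08e-05), and Pfkfb4 (log2 fold change 3.57, adjusted p = 9.72e-05) followed. Of 64 genes of oxidative phosphorylation 55 were tested, 0 were called higher in PMN-MDSC and 9 toward M-MDSC (0% and 16.4%), 4 of them let through by the filter on M-MDSC alone, with a median of −0.93, and 40 of the 55 were higher in every M-MDSC library than in every PMN-MDSC library, as were 33.5% of all tested genes. Ndufa5, a subunit of complex I (0.782, 0.516 and 0.888 CPM in PMN-MDSC and 10.5, 12.5, 13.7 and 17.6 CPM in M-MDSC; log2 fold change −4.13 ± 0.42, adjusted p = 0.000148), Atp5a1, a subunit of ATP synthase (157, 106 and 125 CPM in PMN-MDSC and 436, 514, 397 and 366 CPM in M-MDSC; log2 fold change −1.73 ± 0.22, adjusted p = 0.000343), Cox7b (log2 fold change −1.89, adjusted p = 0.000203) and Cycs, cytochrome c (log2 fold change −2.41, adjusted p = 0.000233), were called. Of 79 ribosomal protein genes 76 were tested, 0 were called higher in PMN-MDSC and 23 toward M-MDSC (0% and 30.3%), 5 of them let through on M-MDSC alone, with a median of −1.4, and 70 of the 76 were higher in every M-MDSC library, beside the same 33.5%. Rpl5 stood at 28.2, 22.7 and 18.2 CPM in PMN-MDSC and 102, 105, 100.4 and 118 CPM in M-MDSC. For Rpl5 the log2 fold change was −2.22 ± 0.2 (adjusted p = 0.00011). Rpl22 stood at 60.2, 50 and 59.5 CPM in PMN-MDSC and 207, 204, 186 and 237 CPM in M-MDSC (log2 fold change −1.88 ± 0.17, adjusted p = 0.000116). Rpl14 stood at 20.3, 15 and 20 CPM in PMN-MDSC and 78, 84.7, 78.1 and 131 CPM in M-MDSC. For Rpl14 the log2 fold change was −2.33 ± 0.27 (adjusted p = 0.000217). The median of both lists was negative under all 4 scalings, from −0.85 to −1.5 for oxidative phosphorylation and from −1.34 to −1.97 for ribosomal proteins. Without M-MDSC libraries 1 and 4, 0 members of either list were called, beside 2.27% and 2.17% of all tested genes, and the medians were −0.99 and −1.30. Many ribosomal protein genes have processed copies that can take their reads.

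Lysosomal genes and regulators of cell death held 6 calls each in M-MDSC, and cell cycle genes 5. Of 27 cathepsin and lysosome genes 25 were tested, 1 was called higher in PMN-MDSC (Ctse, log2 fold change 3.15, adjusted p = 0.000436) and 6 in M-MDSC, shares of 4% and 24%, with a median of −1.35. Of those called, 2 had passed the filter through 1 group alone. Ctsz stood at 102, 195 and 174 CPM in PMN-MDSC and 614, 873, 829 and 533 CPM in M-MDSC (log2 fold change −2.17 ± 0.3, adjusted p = 0.000555), and Ctsc, Lgmn, Lamp1 and acid α-glucosidase were among the other 5. Of 30 cell death genes 29 were tested, 1 was called higher in PMN-MDSC (Bid, log2 fold change 1.98, adjusted p = 0.000994) and 6 in M-MDSC, shares of 3.45% and 20.7%, and 5 of the 6 had passed the filter through M-MDSC alone. Bax, a pore-forming effector, stood at 6.26, 4.64 and 6.66 CPM in PMN-MDSC and 28, 36.7, 32.8 and 25.9 CPM in M-MDSC. For Bax the log2 fold change was −2.39 ± 0.27 (adjusted p = 0.000207). Mlkl, the effector of necroptosis, stood at 14.1, 11.3 and 12 CPM in PMN-MDSC and 54.4, 76.8, 68.2 and 43.5 CPM in M-MDSC. For Mlkl the log2 fold change was −2.29 ± 0.26 (adjusted p = 0.00022). Bcl2a1d, which has near-identical copies, stood at 3.91, 3.61 and 4.44 CPM in PMN-MDSC and 112, 162, 76.3 and 49.9 CPM in M-MDSC. For Bcl2a1d the log2 fold change was −4.63 ± 0.49 (adjusted p = 0.00018). Mcl1, on which neutrophil survival depends, did not pass (log2 fold change 1.53, adjusted p = 0.00218). Of 40 cell cycle genes 35 were tested, 1 was called higher in PMN-MDSC and 5 toward M-MDSC, shares of 2.86% and 14.3%, and 24 had passed the filter through M-MDSC alone, 4 of the 5 called there among them. Ccnd3, cyclin D3, stood at 831, 716 and 698 CPM in PMN-MDSC and 222, 235, 218 and 239.5 CPM in M-MDSC (log2 fold change 1.71 ± 0.16, adjusted p = 0.000125). Cdk4 (2.35, 2.06 and 3.11 CPM in PMN-MDSC and 20.6, 25, 27.4 and 39.7 CPM in M-MDSC; log2 fold change −3.45 ± 0.36, adjusted p = 0.000171), Pcna (log2 fold change −2.5, adjusted p = 0.000287) and Mcm6 (log2 fold change −3.52, adjusted p = 0.000403) were higher in M-MDSC, and Mki67 and Top2a did not pass. Without M-MDSC libraries 1 and 4, 0 cell cycle genes were called in either direction, beside 2.27% and 2.17% of all tested genes.

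Leaving out 1 library at a time moved calls of named genes, and 0 of the called ones changed sign. Of 185 named genes 141 were called, 60 of these were called in all 7 omissions and 3 (Gpr27, Scrg1 and Ndufa5) in every omission that tested them. The 60 included Mmp8, Olfm4, Ly6g, Ccr2, Irf8, Ms4a6c, Mxd1, Cebpd, Padi4, Trem1, Rac2, Vsir, Cd33, Tlr9, Ifi30, Calr, Rpl5 and Pygl. The other 78 lost the call in at least 1 omission, with an adjusted p of at most 0.00634 in edgeR's quasi-likelihood test (Hspa5, without PMN-MDSC library 3). Of the 44 that were not called, 8 were called in 1 omission each: Csf1r, Cx3cr1, Cxcl9, Elane, Fn1, H2-Ab1, Mcl1 and Spi1. Counts of called list members moved as well, though not always with the number of called genes. Of mature neutrophil genes, 9 were called higher in PMN-MDSC without M-MDSC library 1, 12 without M-MDSC library 2 or 3 or PMN-MDSC library 2, 15 without PMN-MDSC library 3, 19 without PMN-MDSC library 1 and 22 without M-MDSC library 4. Secondary granule genes gave 3 to 5 calls in these fits, and monocyte genes 12 to 19 in M-MDSC. Interferon-stimulated genes gave 16 calls in PMN-MDSC without PMN-MDSC library 1 and 0 to 2 in the other omissions, with 3 to 5 in M-MDSC. NADPH oxidase genes gave 2 to 7 in PMN-MDSC, with 2 without M-MDSC library 1 or 3. Oxidative phosphorylation gave 10 in M-MDSC without PMN-MDSC library 1, 4 without M-MDSC library 4 and 0 to 2 otherwise, and ribosomal proteins gave 23, 10 and 2 to 9 in the same fits. Without M-MDSC library 1 the calls in PMN-MDSC numbered 3 of lineage factors, 3 of chemotactic receptors, 3 of glycolysis, 2 of integrins and 0 of eicosanoid genes. Without PMN-MDSC library 1, 12 lineage factors were called higher in PMN-MDSC. Integrin and eicosanoid genes each gave 0 to 2 calls in M-MDSC over the omissions. In M-MDSC, over the 7 omissions, lineage factors gave 2 to 6 calls, interferon sensing genes 1 to 4, cathepsin and lysosome genes 2 to 5, cell death genes 1 to 6, cell cycle genes 0 to 5, macrophage and dendritic cell genes 0 to 3 and Fc, complement and scavenger receptors 0 to 2. The lowest of these counts came without PMN-MDSC library 3 for lineage factors and without PMN-MDSC library 2 for cell cycle, macrophage and Fc receptor genes.

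Whether treatment changes the difference between the cell types was tested as an interaction over treated and untreated spleen. The log2 difference is the log2 fold change of PMN-MDSC over M-MDSC in treated spleen minus that in untreated spleen, and means below are CPM ± SD over the libraries of a group, scaled over all 8 MDSC groups. Of 8417 genes tested, 371 (4.41%) had a higher value in treated spleen and 543 (6.45%) a lower one at an adjusted p under 0.05, and 10 passed 0.001. The share of higher calls was 40.6% with TMM factors, 31.3% with RLE, 21.6% with upper-quartile scaling and 12.1% with library totals alone, and without untreated PMN-MDSC library 3 it was 18.1%. Without treated PMN-MDSC library 1 the number of calls rose from 914 to 1414, and without treated PMN-MDSC library 3 it fell to 570. Cell type markers moved with this comparison: the 10 monocyte markers summed to 784 to 2530 CPM in untreated PMN-MDSC and to 283 to 407 CPM in treated PMN-MDSC, red pulp macrophage markers to 1090 to 1920 and 548 to 1000 CPM, dendritic cell markers to 27.8 to 80.7 and 0.864 to 5.15 CPM, and erythroid markers to 81.5 to 228 and 1.15 to 14.7 CPM. The 10 neutrophil markers summed to 24000 to 47000 CPM in untreated and 44300 to 97400 CPM in treated PMN-MDSC, and the monocyte markers to 5800 to 8520 and 2390 to 3980 CPM in M-MDSC. In M-MDSC the red pulp macrophage markers, Axl among them, summed to 188 to 318 CPM untreated and 530 to 906 CPM treated. Stroma and endothelium markers, of which Kdr alone made up most in the treated libraries, summed to 1.81 to 7.97 CPM and 82.4 to 257 CPM there. Their part in the result was not tested.

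Of 90 interferon-stimulated genes tested, 19 (21.1%) were higher calls and 3 (3.33%) lower ones, beside 4.41% and 6.45% of all tested genes. No test of the list was run, and the list's median log2 fold change of PMN-MDSC over M-MDSC was 0.53 in treated and −0.19 in untreated spleen. Xaf1, an interferon-induced gene of cell death, stood at 248 ± 80.2 CPM in treated PMN-MDSC and 98 ± 15.2 in treated M-MDSC, and at 17 ± 2.91 and 33.6 ± 4.55 in untreated spleen (log2 difference 2.46 ± 0.29, adjusted p = 0.000564). Ifitm3 stood at 804 ± 150 and 334 ± 61.2 CPM in treated and at 139 ± 47.4 and 218 ± 24.8 CPM in untreated spleen (log2 difference 2.08 ± 0.29, adjusted p = 0.00157). Ifi211 stood at 4.34 ± 3.38 CPM in untreated PMN-MDSC and 189 ± 99.2 in treated PMN-MDSC, and at 126 ± 43.3 and 432 ± 181 in M-MDSC (log2 difference 3.66 ± 0.71, adjusted p = 0.00749). Mx2 stood at 3.48 ± 1.71 CPM in untreated and 95.3 ± 49.7 in treated PMN-MDSC, and at 21.8 ± 2.3 and 77 ± 34.7 in M-MDSC (log2 difference 3.09 ± 0.59, adjusted p = 0.00666). The 3 lower ones included Slfn4, with 14400 ± 6520 and 1993 ± 461 CPM in treated and 2193 ± 414 and 64.2 ± 11.1 CPM in untreated spleen (log2 difference −2.1 ± 0.39, adjusted p = 0.00627), and Iigp1, with 3.34 ± 3.47 CPM in untreated and 104 ± 46.7 in treated M-MDSC and 3.44 ± 2.79 and 3.21 ± 0.83 CPM in PMN-MDSC (log2 difference −5.1 ± 0.97, adjusted p = 0.00664).

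The 6 higher calls with the smallest adjusted p were Acvrl1, Xaf1, Tnfaip8, Sqor, Timp2 and Fam117b. Acvrl1, a receptor for bone morphogenetic proteins, stood at 352 ± 157 and 10.6 ± 2.36 CPM in treated and at 79.5 ± 29.1 and 29.3 ± 5.34 CPM in untreated spleen (log2 difference 3.7 ± 0.43, adjusted p = 0.000564). Timp2, an inhibitor of metalloproteinases (log2 difference 2.37 ± 0.31, adjusted p = 0.00101), Sqor, a mitochondrial sulfide oxidase (log2 difference 1.78 ± 0.23, adjusted p = 0.00101), Tnfaip8 (log2 difference 1.25 ± 0.15, adjusted p = 0.000709) and Fam117b (log2 difference 1.6 ± 0.21, adjusted p = 0.00101) were the other higher calls. The lower calls with the smallest adjusted p included Tgm2, Peak1, Acp5, Tspan3 and Sh3pxd2a. Tgm2, a transglutaminase, stood at 148 ± 10.6 and 222 ± 67.2 CPM in treated and at 303 ± 82.5 and 37.9 ± 1.89 CPM in untreated spleen (log2 difference −3.43 ± 0.3, adjusted p = 9.15e-05), so the order of the group means turned over. The order of Peak1 turned over as well, with 17.1 ± 8.84 and 63 ± 14.2 CPM against 160 ± 20 and 33.1 ± 3.76 (log2 difference −4.02 ± 0.37, adjusted p = 9.15e-05). Acp5 (log2 difference −3.71 ± 0.44, adjusted p = 0.000564), Tspan3 (log2 difference −4.21 ± 0.48, adjusted p = 0.000564) and Sh3pxd2a (log2 difference −4.3 ± 0.49, adjusted p = 0.000564) followed. Of monocyte genes 11 of 42 (26.2%) and of macrophage and dendritic cell genes 7 of 14 (50%) were lower calls, beside 6.45% of all tested genes. Klf4 stood at 31 ± 21.2 CPM in untreated and 0.544 ± 0.575 CPM in treated PMN-MDSC (log2 difference −4.52 ± 0.99, adjusted p = 0.0125), and Axl at 187 ± 119 and 17.3 ± 11.6 (log2 difference −5.34 ± 0.8, adjusted p = 0.00204). Irf8 was a lower call too (log2 difference −1.94 ± 0.56, adjusted p = 0.0386). Untreated PMN-MDSC also held the larger sums of monocyte and macrophage markers given above. On the neutrophil side, Olfm4 (log2 difference 3.49 ± 0.57, adjusted p = 0.00308) and Ly6g (log2 difference 2.86 ± 0.87, adjusted p = 0.0474) were higher calls and Fpr1 was a lower one (log2 difference −2.63 ± 0.43, adjusted p = 0.00298). Ly6g stood at 399 ± 52.4 CPM in treated and 65 ± 25.1 CPM in untreated PMN-MDSC. Ly6c2 stood at 1182 ± 343 and 836 ± 98.7 CPM in treated and at 74.3 ± 29.2 and 121 ± 36.7 CPM in untreated spleen (log2 difference 1.34 ± 0.41, adjusted p = 0.0488), and the cell death gene Bcl2a1d was a lower call (log2 difference −3.99 ± 0.59, adjusted p = 0.00204).

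Between treated spleen and treated tumor the difference of the cell types was tested in the same way, and the 2 interactions share the treated spleen libraries. In treated tumor on its own, 0 of 8955 genes passed the thresholds of edgeR's quasi-likelihood test (smallest adjusted p = 0.011), 1153 had an unadjusted p under 0.05, and DESeq2 called 93. Of 8725 genes, 974 (11.2%) had a higher and 1711 (19.6%) a lower value in spleen at an adjusted p under 0.05. The share of higher calls was 36.3% with TMM factors, 43% with RLE, 20.5% with upper-quartile scaling and 10.7% with library totals alone. Monocyte markers summed to 1940 to 4040 CPM in PMN-MDSC of tumor and 283 to 407 CPM in those of spleen, neutrophil markers to 3850 to 10000 and 44300 to 97400 CPM, and markers of pancreatic tumor epithelium reached 162 and 4.32 CPM. Red pulp macrophage markers summed to 2800 to 5150 CPM in PMN-MDSC and 1740 to 7240 CPM in M-MDSC of tumor, and to 548 to 1000 and 530 to 906 CPM in those of treated spleen. Their part in the result was not tested.

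Toward higher values in spleen, Asb7 stood at 179 ± 36.5 and 13.5 ± 1.39 CPM in spleen and at 18.2 ± 2.84 and 10.2 ± 1.6 CPM in tumor (log2 difference 2.89 ± 0.29, adjusted p = 0.000105), and Acvrl1 at 352 ± 157 and 10.6 ± 2.36 CPM against 60 ± 24.3 and 51.6 ± 30.8 (log2 difference 4.81 ± 0.58, adjusted p = 0.000252). Aatk (log2 difference 2.47 ± 0.31, adjusted p = 0.000258), Zfp516 (log2 difference 2.23 ± 0.29, adjusted p = 0.000309), Gm44292 (log2 difference 3.46 ± 0.45, adjusted p = 0.000309) and Timp2 (log2 difference 3.76 ± 0.5, adjusted p = 0.000318) complete the 6 with the smallest adjusted p, with Unc13d at the same adjusted p as Timp2 (log2 difference 1.77 ± 0.23, adjusted p = 0.000318), and Cd33 was also called (log2 difference 3.12 ± 0.65, adjusted p = 0.00401). The 6 lower calls were G3bp1, Hspa9, Pdxk, Nop14, Wdr43 and Cluh, whose mean level in PMN-MDSC of treated spleen was the lowest of the 4 groups. Hspa9, a mitochondrial chaperone, stood at 13.9 ± 3.54 and 129 ± 13.2 CPM in spleen and at 166 ± 32.1 and 169.7 ± 1.65 CPM in tumor (log2 difference −3.22 ± 0.29, adjusted p = 9.97e-05), and Pdxk, pyridoxal kinase, at 1.25 ± 0.605 and 54.5 ± 9.24 CPM against 46.3 ± 13.6 and 65.7 ± 9.06 (log2 difference −4.96 ± 0.46, adjusted p = 9.97e-05). G3bp1, a stress granule protein (log2 difference −2.61 ± 0.24, adjusted p = 9.97e-05), Nop14 (log2 difference −3.08 ± 0.29, adjusted p = 9.97e-05) and Wdr43 (log2 difference −2.95 ± 0.25, adjusted p = 9.97e-05), which serve ribosome assembly, and Cluh (log2 difference −4.21 ± 0.42, adjusted p = 0.000105) followed. Of 78 ribosomal protein genes 38 (48.7%) were lower calls, beside 19.6% of all tested genes, and 0 higher ones, and the median log2 fold change of the list stood at −1.4 in spleen against −0.38 in tumor. Of 42 monocyte genes 22 (52.4%) were lower calls and 1 was a higher one, with medians of −2.65 and −0.53. Irf8 stood at 7.98 ± 2.86 and 171 ± 27 CPM in spleen and at 140.3 ± 63.6 and 210.3 ± 73.5 CPM in tumor (log2 difference −3.9 ± 0.57, adjusted p = 0.000512), and Ms4a6c had a log2 difference of −3.87. Mature neutrophil genes had a positive median in the 3 conditions compared, 4.11 in treated spleen, 3.68 in untreated spleen and 2.71 in treated tumor.

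**Figure D4:**
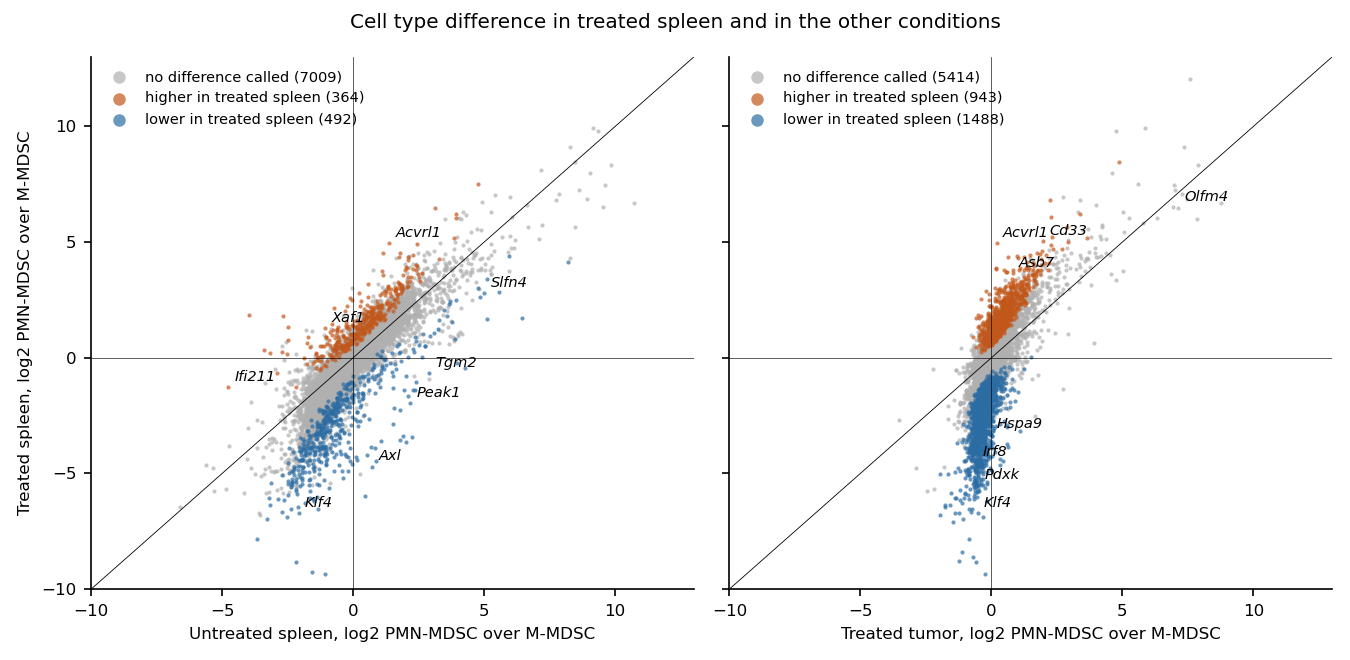
Log2 fold change of PMN-MDSC over M-MDSC in treated spleen (vertical axes) against that in untreated spleen (left) or treated tumor (right), 1 point per gene tested in both, with the line of equal values. Orange and blue points are genes whose difference was called higher or lower in treated spleen, with 7865 points on the left and 7845 on the right. Points above the line have a larger fold change toward PMN-MDSC in treated spleen.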

How the data were processed

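RNA of sorted PMN-MDSC and M-MDSC from spleens and tumors of mice bearing T110299 tumors was sequenced with a stranded total RNA kit (at most 10 ng of input, 13 PCR cycles, no molecular identifiers). The deposited values are raw read counts per Ensembl gene: per the labels and the study's methods, the authors mapped reads with ContextMap to mm10 and counted them by strand with featureCounts against a Gencode annotation, without normalization. The table holds 53379 genes, and symbols and positions (GRCm38) were matched from GENCODE M21, which lacked 105 identifiers. Library totals of the 7 treated spleen libraries ran from 1561674 to 3435054 counts. A library of 10 counts was left out, so 34 of 35 libraries were used.

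Genes that averaged 25 or more counts in the libraries of a comparison were kept, as in the study. Counts were scaled with TMM factors and tested with the quasi-likelihood F-test of edgeR 4.0.16 in R 4.3.3 (two-sided, robust estimates). The 2 groups of treated spleen were fitted alone and called at a Benjamini-Hochberg adjusted p under 0.001 with at least a 2-fold change. Interactions of cell type with treatment or compartment were fitted over 4 groups each and called at an adjusted p under 0.05. The SE of a log2 fold change is its size divided by the square root of F. The level of 3 counts per library was the floor, and intervals are exact at 95%. Alternatives were DESeq2 (here version 1.42.0), the tool that the study used, and RLE, upper-quartile or no scaling factors. Other filters and thresholds, fits over more groups and fits with each library left out were also run. Omission of M-MDSC libraries 1 and 4 together was added after their marker sums were seen. The procedure was tested on simulated data.

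Library numbers follow column order and only name libraries. Members and gene lists were chosen with earlier results of these data known, so the lists carry no test of their own. Named genes were the 8 largest and 8 smallest log2 fold changes of called genes, the 8 most abundant in each direction, up to 3 list members in each direction by adjusted p, members named as not passing, the sorting antigens and defining markers, and the 6 interactions with the smallest adjusted p in each direction with list members that passed. Predicted genes, pseudogenes and receptor segments were left out of the largest changes and set apart among the most abundant, and some genes that the rule names are not reported here.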

Additional observations from a re-analysis of the deposited data

Results flagged for a closer look

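Over the 4 M-MDSC libraries of treated spleen, Dixon's criterion set the highest or lowest value apart in 22 of 198 gene and marker groups (11.1%). The criterion gives 5% by chance for independent normal values. CPM of related genes, some near 0, are not such values, so no excess over chance can be read from this share. Library 4 was the high one in 12 of the 22. Its sums of B cell (11700 CPM), plasma cell (934 CPM), T cell (45 CPM), NK cell (150 CPM) and dendritic cell markers (51.7 CPM) were among them, as were Asprv1 (13.5 CPM), Dhrs9 (7.12 CPM), Adam8 (118 CPM), Cd14 (34.5 CPM), Nos2 (7.87 CPM), Itgb3 (16.9 CPM) and Rpl14 (131 CPM), and Ccl9 was low there (68.2 CPM). Library 3 was high for Slfn4 (2579 CPM), Iigp1 (167 CPM), B2m (1712 CPM) and Gaa (60.2 CPM). Library 2 was high for Papss2 (28.6 CPM), S100a10 (168 CPM) and Hspa8 (3042 CPM), and library 1 was high for Amer2 (0.338 CPM, 1 count) and low for Grina (101 CPM). Whether the lymphoid RNA of library 4 had a part in any result was not tested, and the number of called genes without that library was 1199.

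The difference between PMN-MDSC and M-MDSC itself differed between treated and untreated spleen for 24 of the genes whose value of this difference the report gives, by edgeR's interaction test at an adjusted p under 0.05. The log2 differences were positive for Acvrl1 (3.70), Xaf1 (2.46), Tnfaip8 (1.25), Sqor (1.78), Timp2 (2.37), Fam117b (1.6), Ly6g (2.86), Olfm4 (3.49), Ly6c2 (1.34), Ifitm3 (2.08), Ifi211 (3.66) and Mx2 (3.09). They were negative for Tgm2 (−3.43), Peak1 (−4.02), Acp5 (−3.71), Tspan3 (−4.21), Sh3pxd2a (−4.30), Klf4 (−4.52), Irf8 (−1.94), Axl (−5.34), Slfn4 (−2.10), Fpr1 (−2.63), Bcl2a1d (−3.99) and Iigp1 (−5.10). Between treated spleen and treated tumor it differed for 16 such genes, with positive log2 differences for Asb7 (2.89), Acvrl1 (4.81), Aatk (2.47), Zfp516 (2.23), Timp2 (3.76), Gm44292 (3.46), Unc13d (1.77) and Cd33 (3.12) and negative ones for G3bp1 (−2.61), Hspa9 (−3.22), Pdxk (−4.96), Nop14 (−3.08), Wdr43 (−2.95), Cluh (−4.21), Irf8 (−3.90) and Ms4a6c (−3.87). Further members of the gene and marker lists passed either test without a value printed here. Both comparisons use the treated spleen libraries, and the sums of monocyte and macrophage markers that differed between the PMN-MDSC groups stand beside them in the report.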

How the results depend on the processing

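Of the 1728 called genes, 0 were called in the opposite direction under any alternative. The number of calls (higher and lower in PMN-MDSC) was 3259 (1573 and 1686) with DESeq2, 3646 (1494 and 2152) without a filter, 3057 (1407 and 1650) in a fit over the 4 spleen groups, 3347 (1515 and 1832) over all 8 MDSC groups and 3865 (1683 and 2182) at an adjusted p under 0.05. It was 1298 (609 and 689) with at least 10 counts in every library, 2423 (1022 and 1401) in the test against a 2-fold change at an adjusted p under 0.05 and 348 (178 and 170) without M-MDSC libraries 1 and 4. Scaling moved the split more than the total: 1985 (442 and 1543) with library totals alone and 1748 (568 and 1180) with upper-quartile scaling. Leaving out 1 library gave 516 to 1718 calls, 249 to 851 higher and 267 to 867 lower. The cause of these shifts was not tested.

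For treated against untreated spleen, DESeq2 called 1300 (440 and 860), upper-quartile scaling 926 (200 and 726), library totals alone 1194 (145 and 1049), no filter 1590 (404 and 1186), at least 10 counts in every library 513 (145 and 368) and an adjusted p under 0.001 10 (3 and 7), with 570 to 1414 calls (196 to 573 higher and 336 to 888 lower) when 1 library was left out. For spleen against tumor, DESeq2 called 3258 (1466 and 1792), upper-quartile scaling 2755 (564 and 2191), library totals alone 3110 (333 and 2777), no filter 3095 (860 and 2235), at least 10 counts in every library 1448 (631 and 817) and an adjusted p under 0.001 261 (36 and 225), with 2017 to 3118 calls when 1 library was left out. Of 3443 recomputed values of named genes in treated spleen, 465 lost the call, 128 gained it and 18 changed sign, all in 10 genes that were not called. The log2 fold change was −0.058 for Irf7, −0.12 for Ifnar1 and −0.085 for Cybb with upper-quartile scaling. With library totals alone it was −0.16 for Ly6c2, −0.30 for Irf7, −0.37 for Ifnar1, −0.082 for H2-K1, −0.11 for B2m and −0.35 for Cybb. With at least 10 counts in every library it was −0.047 for Ifnar1 and −0.048 for Cybb, and without M-MDSC libraries 1 and 4 it was −0.067 for Irf7 and 0.049 for Top2a. With 1 library left out it ran from −0.45 to 0.26 for Ifih1, −0.74 to 0.096 for Cd274, −0.78 to 0.62 for Cybb and −0.49 to 0.32 for Tlr7. Of 541 and 348 values of named interactions, 55 and 1 lost it.

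No paired analysis was possible because the column names carry no mouse number: their running numbers come in runs of up to 4 libraries that no label ties to a mouse, so unpaired p-values ignore any shared mouse. Library depth limits low genes: 3 counts stood for 0.765 to 2.35 CPM.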
